A study of Arabidopsis thaliana with 6 samples.

Results

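On the chromosome arms of Arabidopsis thaliana leaves, 450 long islands carried both monomethylated lysine 27 of histone H3 (H3K27me1) and methylated cytosine (5mC). They are H3K27me1 domains at least 1500 bp wide, with at least 50% of their width in 5mC domains and their midpoint outside the gene-poor pericentromeres. They make up 6.27% of the 7181 H3K27me1 domains on the arms and 55.8% of the 806 arm domains of that width, out of 13068 domains in the whole list. Together they span 1.56 Mb, which is 25.5% of the arm bases and 8.26% of all bases in H3K27me1 domains.

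The samples were young leaves of wild-type Col-0 plants, the accession of the reference genome, grown in soil under short days. Chromatin immunoprecipitation for H3K27me1 (2 samples) and immunoprecipitation of methylated DNA for 5mC (2 samples) were sequenced, with 2 input samples for the methylation assay, and leaves mix many cell types. The values used were 1 list of enriched domains per mark, with a position and a read count for each domain. The lists held 12706852 reads in H3K27me1 domains and 28021211 reads in 12238 domains of 5mC, and the library depths are not used here. No value was given per replicate, so no replicate error and no test between samples could be computed. Intervals below are 95% Wilson intervals, which cover counting error over domains only, and the values of the 5 chromosomes show the spread along the genome.

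H3K27me1 is placed by the methyltransferases ATXR5 and ATXR6 and marks silent chromatin, in which transposons are kept from transcription. Cytosines of transposons are methylated in CG, CHG and CHH contexts by MET1, CMT3, CMT2 and the RNA-directed pathway, with the remodeller DDM1. Most of this chromatin lies around the centromeres. On the arms, transposon copies lie between and inside active genes. The gene table used here has no class of transposable elements, and transposon genes are among its pseudogenes.

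Width, 5mC overlap and position chose the islands and are given as description. Islands ranged from 1500 to 37800 bp, with a median of 2700 bp (quartiles 1800 and 4500 bp). Of them, 73 had exactly the minimum width, while 152 further arm domains with both marks stopped at 1200 bp. The 5mC share was seldom near its threshold: 17 islands had 50 to 60% of their width in 5mC, and 9 long arm domains had 40 to 50%. The 2 long domains just under the threshold had 41.7% and 42.9% in 5mC with 377 and 556 H3K27me1 reads per kb. A pair of islands at exactly 50% had 450 and 458 reads per kb. Called 5mC domains spanned most islands from end to end, since 252 of 450 (56.0%) lay wholly in 5mC domains and 368 had at least 90% there.

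The sequence under the islands was mainly pseudogene. At least 50% of the width lay in annotated pseudogenes for 313 of 450 islands (69.6%, interval 65.2 to 73.6%) and in protein-coding genes for 101 (22.4%, 18.8 to 26.5%). These counts share 7 islands in which a pseudogene is nested in a coding gene, and 43 islands belonged mostly to neither class. By bases, 67.6% of the islands was pseudogene, 16.9% protein-coding, 1.57% other RNA genes and 16.4% outside any annotated gene. By chromosome, the pseudogene share was 67.4% on chromosome 1, 73.5% on chromosome 2, 65.1% on chromosome 3, 68.7% on chromosome 4 and 74.2% on chromosome 5.

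The 303 arm H3K27me1 domains of the same minimum width with no base in 5mC had another composition. Only 18 of these (5.94%, 3.79 to 9.19%) lay mostly in pseudogenes and 284 (93.7%, 90.4 to 95.9%) mostly in protein-coding genes. Over the chromosomes their pseudogene share ran from 2.56 to 9.09%, below the lowest chromosome value of the islands. The difference in pseudogene share was 63.6 percentage points (58.1 to 68.2). Islands were wider than those domains, so the shares were also set side by side at equal width. At 1500 bp, 22 of 73 islands (30.1%) and 5 of 160 domains without 5mC (3.13%) were mostly pseudogene. At 3000 to 4500 bp, the counts were 80 of 100 islands and 1 of 8 domains without 5mC. All 103 arm domains of 4800 bp or more were islands, and 95 of them (92.2%) were mostly pseudogene.

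**Figure D1:**
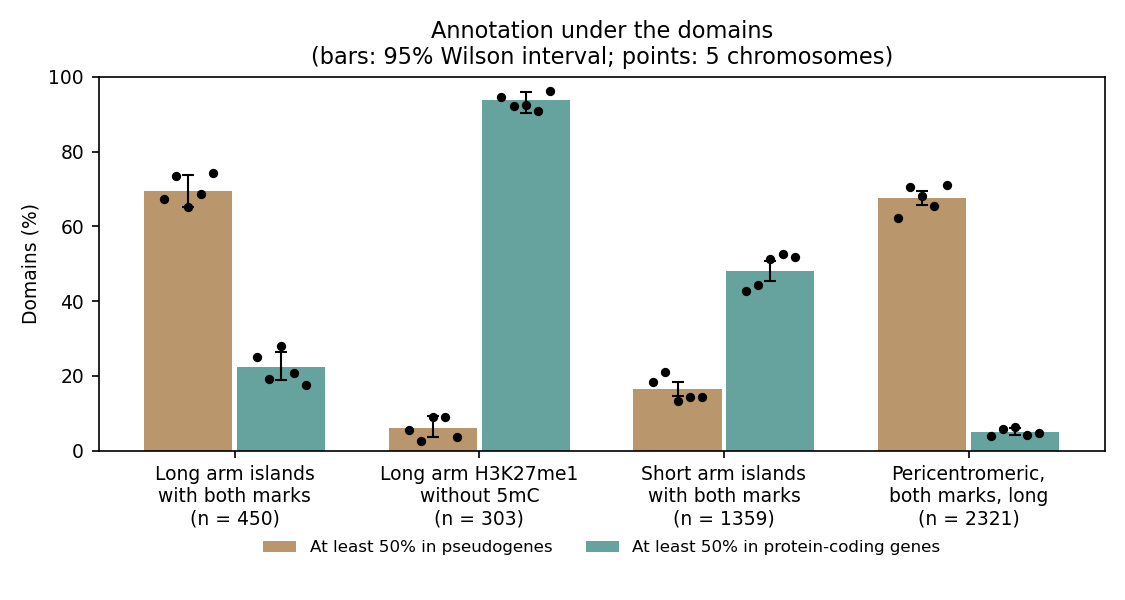
Share of domains (%) with at least 50% of their width in pseudogenes or in protein-coding genes, for the long arm islands with both marks and for 3 comparison sets; bars show the share with its 95% Wilson interval and points the 5 chromosomes. Pseudogenes lead under the islands (69.6%) and under long pericentromeric domains with both marks (67.7%), and protein-coding genes under long arm domains without 5mC (93.7%).

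Domains with a little 5mC resembled those with none. The 53 long arm domains with some 5mC but less than 50% included 3 mostly in pseudogenes (5.66%) and had a median of 388 H3K27me1 reads per kb. Among the islands, those with 50 to under 80% in 5mC stood between, with 13 of 48 mostly in pseudogenes (27.1%) and a median of 461 reads per kb. With 100% in 5mC, 191 of 252 (75.8%) were mostly pseudogene and the median was 656 reads per kb. The share in 5mC is part of the rule, so this gradient is a description.

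H3K27me1 read density, which the rule did not use except through the calling of the domains, was higher in islands than in long arm domains without 5mC. The median was 630.2 reads per kb in islands (quartiles 528 and 751) and 403 in domains without 5mC (364 and 466). At the equal width of 1500 bp, the medians were 519 (429 to 633) and 397 (361 to 459). The 1359 shorter arm domains with both marks had a median of 446 reads per kb (392 to 555). The quartile ranges of islands and domains without 5mC did not overlap over all widths, but overlapped at 1500 bp.

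Within the islands, denser H3K27me1 went with denser 5mC. Spearman's rho between H3K27me1 reads per kb and the reads per kb of the 5mC domains met was 0.55 over 450 islands. It was 0.49 between width and H3K27me1 density and 0.36 between width and 5mC density. Neighbouring islands can share a 5mC domain, and both libraries share the copy number and mappability of each site, which were not measured. The 313 mostly pseudogenic islands had a median of 662 H3K27me1 and 1733 5mC reads per kb. The 94 islands mostly in coding genes and not in pseudogenes had 528 and 1531.

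**Figure D2:**
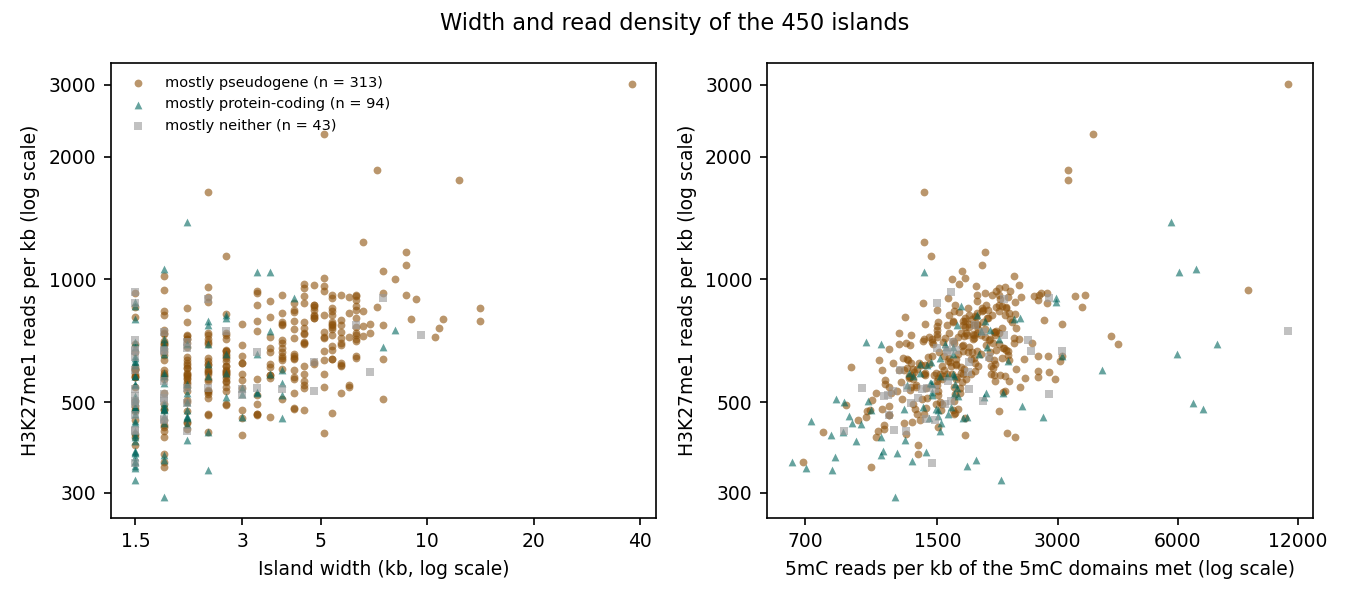
H3K27me1 reads per kb of each of the 450 islands against island width (left, kb) and against the reads per kb of the 5mC domains met (right), all axes logarithmic; colours and shapes give the annotation class. The island at the upper right of both panels is the 37.8 kb island at the tip of chromosome 2, and a few mostly coding islands lie at 5mC densities above 5000 reads per kb.

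A minority of arm pseudogenes was covered by islands, with the largest shares among long ones. Of 1254 arm pseudogenes, islands took up 50% or more of 337 (26.9%), 80% or more of 300 (23.9%), at least 1 bp of 359 (28.6%) and the whole of 199. Islands held 47.0% of all arm pseudogene bases. Covered pseudogenes had a median length of 3385 bp and the other arm pseudogenes 851 bp. The share covered was 3.79% below 500 bp (10 of 264), 12.45% from 500 bp (59 of 474), 32.7% from 1500 bp (82 of 251), 67.0% from 3000 bp (140 of 209) and 82.1% from 5000 bp (46 of 56). The minimum width of an island works against short pseudogenes in these shares. No base in a domain of either mark was found for 184 of 264 pseudogenes under 500 bp (69.7%) and 2 of 56 (3.57%) from 5000 bp. A longer pseudogene has more bases that can meet a domain, so this share also depends on length by its construction.

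**Figure D3:**
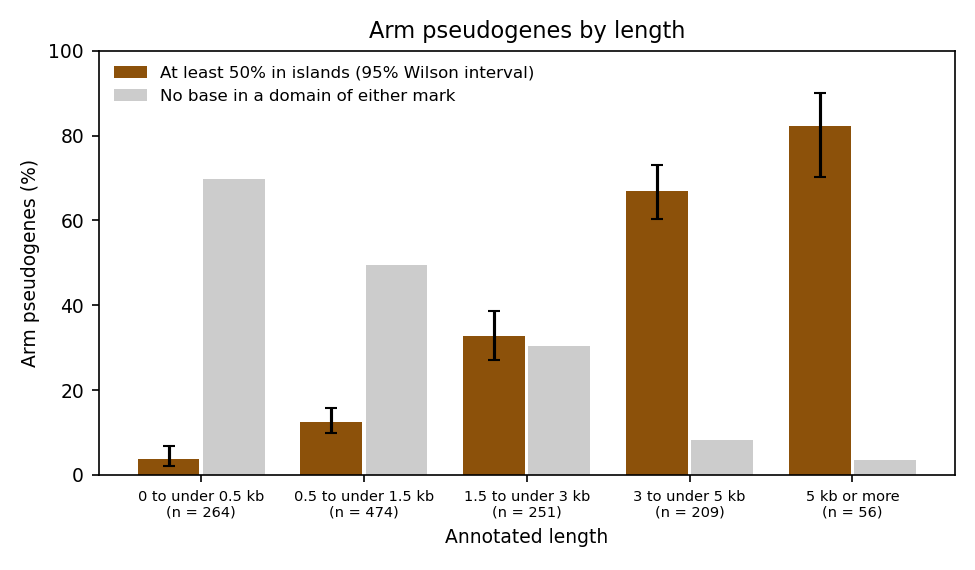
Share of arm pseudogenes (%) by annotated length that had at least 50% of their length in islands (brown, with 95% Wilson interval) or no base in a domain of either mark (grey). Coverage climbs to 82.1% in the longest class, where 3.57% were free of both marks.

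Single island edges often lay near an end of the pseudogene beneath them, but in most islands not both edges did. For the 265 mostly pseudogenic islands with a single pseudogene (median length 4075 bp), the median distance from island edge to pseudogene end was 58.5 bp, counted as positive where the island was longer (quartiles -116 and 325 bp). Both edges lay within 300 bp of the ends, the step of the H3K27me1 calling windows, in 79 of these 265 islands. The island passed both ends in 110 and lay inside the pseudogene in 46. A further 49 islands touched 2 or more pseudogenes.

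Among known retrotransposons of the Copia type, coverage ran from the whole element to a part of it. All 5 arm loci listed as copies of ONSEN, which is transcribed under heat stress, lay 100% in islands of 4200 bp. Their lengths, 3963 to 4071 bp, fall in the class of 3000 to 5000 bp, of which 67.0% of arm pseudogenes had 50% or more in islands. The ONSEN islands had 572 H3K27me1 reads per kb at AT1G11265, 655 at AT1G48710, 875 at AT1G58140, 840.5 at AT3G61330 and 831 at AT5G13205. The copy with the lowest density, AT1G11265, is also the one that lies inside a protein-coding gene. A link between location and density was not tested. Densities of repeated sequence depend on how reads with several matches were placed, which is not given. EVD (AT5G17125), a Copia element that is mobilised when CG methylation is lost, had 60.7% of its length in a 3000 bp island with 625 reads per kb. RE2 (AT4G02960), named retro element 2, had 93.2% in 2 adjacent islands with 821 and 412 reads per kb. It was the single element touched among 8 arm pseudogenes with transposon words in their names (12.5%, against 28.6% of all arm pseudogenes touched).

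Protein-coding genes were covered less often. Of 25040 arm genes, 172 (0.687%) had at least 1 bp in islands 136 (0.543%) at least 50% and 102 (0.407%) at least 80%, and 49 were covered whole. The covered genes had a median length of 1806 bp, against 2109 bp for all arm coding genes. Most had no symbol beyond the locus name, and 15 of the 136 had one. The 10 genes with the most covered bases were AT5G39770 (8049 bp, 96.9% of the gene), AT1G27570 (6239 bp, 91.2%), AT1G58602 (6000 bp, 30.5%), AT3G60950 (5400 bp, 92.6%), AT3G05410 (5100 bp, 74.3%), AT4G22410 (5100 bp, 62.9%), AT4G11373 (5063 bp, 87.6%), AT3G61030 (4599 bp, 88.5%), AT1G20400 (4209 bp, 95.1%) and AT1G11270 (4200 bp, 62.6%), which tied with AT5G07570 (4200 bp, 88.4%). Among these genes, AT1G58602 was the one covered over less than 50%.

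The 15 covered coding genes with a symbol, listed because they are all of them, belonged to several families. WAK5, a wall-associated kinase, and RKF2, a receptor-like kinase, were covered 100%. ADR1-L3, named as a relative of the immune helper receptor ADR1, had 97.5% in an island with 771 H3K27me1 reads per kb. EDA34 had 97.9% and CYP705A32, a cytochrome P450, 87.0%. The transcription factors MYB120 and AGL92 had 93.5% and 94.9%, and the molybdate transporter gene MOT1 had 87.8%. EXO70H5, an exocyst subunit, had 70.3% and CDKE;1, a cyclin-dependent kinase, 58.6%. The islands of MYB120, MOT1 and CDKE;1 had 362, 488 and 445 reads per kb, all below the lower quartile of 528. The share in islands is not the share in 5mC domains, which was 49.5% for MYB120, 56.25% for MOT1 and 46.9% for CDKE;1. For the other genes of this paragraph it was 70.3 to 100%.

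The remaining 5 of the 15 were genes of extensins and related cell wall proteins, which carry repeated proline-rich motifs and are crosslinked into the wall. EPR1 had 96.2% of its length in islands, EXT6 94.0%, HRGP1 79.1%, LRX1 78.1% and EXT10 77.2%. The extensin pseudogene EXT11 had 88.8%. In 5mC domains lay 39.0% of LRX1 and 84.7 to 95.2% of the others, EXT11 included. This group was picked after its values were seen: of 29 arm genes and pseudogenes with extensin or hydroxyproline-rich in their names, 7 touched islands, 6 of them over at least 50% of their length. The set mixes both classes, for which the shares over all arm genes were 0.687% touched and 0.543% covered among coding genes, and 28.6% and 26.9% among pseudogenes.

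Their 5mC domains were among the densest of all islands. The 5mC domains met had 8995 reads per kb at EXT11, 7514 at EPR1, 6669 at EXT6, 6556 at EXT10 and 5758 at HRGP1, against a median of 1664 and an upper quartile of 2061 over the 450 islands. These rank 3, 4, 6, 7 and 10 among the islands. LRX1 stood apart from them with 1734. H3K27me1 density at the same islands was less extreme and uneven, with 940.0 reads per kb at EXT11, 696 at EPR1, 1059 at EXT6, 498 at EXT10 and 1379 at HRGP1. Repeated sequence within these genes and the treatment of reads with several matches were not measured, so their part in the read density was not tested. Island 5 by 5mC density lay over AT4G22475 and AT4G22485, with 6950 reads per kb of 5mC and 481 of H3K27me1.

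Some islands lay deep inside a coding gene. In all, 49 islands (10.9%) were wholly inside a single coding gene, and 17 left at least 500 bp of it on both sides. The widest of the 17 are described here down to 1800 bp, where 2 islands tied for rank 8, which gives 9 islands in 8 genes. An island of 5100 bp on chromosome 3 from 1555501 to 1560600 (TAIR10) lay in AT3G05410, with 420.0 H3K27me1 reads per kb and 99.1% of it in the pseudogene AT3G05415. Another of 5100 bp on chromosome 4 from 11820301 to 11825400 lay in AT4G22410, with 937 reads per kb and 95.3% in AT4G22415. The ONSEN copy AT1G11265 formed an island in AT1G11270 on chromosome 1 from 3781201 to 3785400, with 96.6% of it in the pseudogene.

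AT2G34100, a gene of 13956 bp, held an island of 3900 bp on chromosome 2 from 14408701 to 14412600. It was 73.8% pseudogene and contained the whole of MEE19, a locus of the table's pseudogene class. AT1G58602, 19695 bp long, held 2 islands of 3000 bp each on chromosome 1, from 21747301 to 21750300 and from 21750601 to 21753600. A single 5mC domain bridged the 300 bp between them, and both overlapped the pseudogene AT1G58561 (54.2% and 88.2% of the islands). Pseudogene sequence thus made up most of each of these islands. The others of the 9 were an island of 2100 bp in AT2G24340 (696 reads per kb), which also held the miRNA locus AT2G08015, and 2 of 1800 bp in AT5G17165 (657) and AT5G39840 (293, the lowest of all islands), with no pseudogene in them. The table has no exons, so introns and exons could not be told apart.

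The widest island stood apart from all others. It ran on chromosome 2 from 901 to 38700, at the tip of the short arm, spanned 37800 bp and had 3016 H3K27me1 reads per kb, the highest of the 450. It held 9.54% of all H3K27me1 reads in islands and 2.43% of their bases. A single 5mC domain from 1051 to 41700, with 11353 reads per kb, covered 99.6% of it and also a neighbouring island of 2700 bp. The interval contained 2 annotated ribosomal RNA genes, 3 protein-coding genes and 5 pseudogenes. The short arm tip of chromosome 2 is known to carry a nucleolus organiser with tandem ribosomal RNA genes. The copy number of that sequence in the plants was not measured, so its part in the read count was not tested.

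The next 9 widest islands were 9.0 to 14.1 kb wide. On chromosome 2 from 10591801 to 10605900, an island of 14100 bp held 6 pseudogenes, with 851 H3K27me1 reads per kb. On chromosome 1 from 9676501 to 9690600, another of 14100 bp held 5 pseudogenes, with 792. The island of 12300 bp on chromosome 1 from 7353001 to 7365300 held 2 pseudogenes and had 1748 reads per kb. On chromosome 5 from 15233701 to 15244800, an island of 11100 bp held the pseudogene AT5G38192 and the whole coding gene AT5G38190. The remaining 5 of these 9 had between 721 and 894 reads per kb.

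Only 17 islands exceeded 1000 H3K27me1 reads per kb. After the tip of chromosome 2, the densest were an island of 5100 bp on chromosome 5 from 15671401 to 15676500 over the pseudogene AT5G39155 (2274 reads per kb) and its neighbour of 7200 bp from 15683401 to 15690600 (1858). The island of 12300 bp on chromosome 1 followed, and then one of 2400 bp from 20475601 to 20478000 on the same chromosome (1640). The lowest 5mC density, 648 reads per kb, was found at an island of 1500 bp in HSP91, a heat shock protein gene on chromosome 1, with 357 H3K27me1 reads per kb.

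Single edges of the marks often coincided closely, but both edges did so in fewer islands. Of 900 island edges, 680 (75.6%) lay within 300 bp of the end of the outermost 5mC domain. Both edges did in 258 of 450 islands (57.3%), and within 150 bp in 208 (46.2%). The 5mC passed the edge at 386 edges, ended at it at 292 and stopped inside at 222, with a median offset of 0 bp (quartiles 0 and 150 bp). Offsets over 1000 bp were found at 114 edges where 5mC ran on outside and at 3 where it stopped that far inside. The minimum 5mC share of an island limits how far inside 5mC can stop, while no limit holds outside. This imbalance is therefore at least partly set by the rule and is given as description. A single 5mC domain met 410 of the 450 islands, 2 domains met 36, and 3 or more met 4.

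Around the islands, 5mC fell off over a short distance, but not steadily beyond it. It covered 75.3% of the first 150 bp inside an edge and 43.0% of the first 150 bp outside. From 150 to 300 bp outside, coverage was 25.4%. It was higher again at 450 to 600 bp, with 28.4%, and was 19.2% at 2850 to 3000 bp. The first 300 bp outside, the H3K27me1 calling window, held no bases in H3K27me1 domains. Around long arm domains without 5mC, coverage was 0.33% in the first 150 bp outside and 3.30% at 2850 to 3000 bp. Pseudogene coverage around islands was 36.02% just inside the edge, 21.4% just outside and 10.1% at the far end of the profile.

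Protein-coding genes were sparse next to the islands. Protein-coding genes covered 18.9% of the first 150 bp outside an island edge and 49.95% at 2850 to 3000 bp. Around domains without 5mC the order was the opposite, with 85.9% and 66.6%. The sequence next to islands was thus largely unannotated, since genes of any kind covered 37.8% of the bases from 150 to 300 bp outside. Of 450 islands, 301 touched no coding gene, and their median distance to the nearest was 1082 bp (quartiles 453 and 2385 bp, largest 8587 bp).

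**Figure D4:**
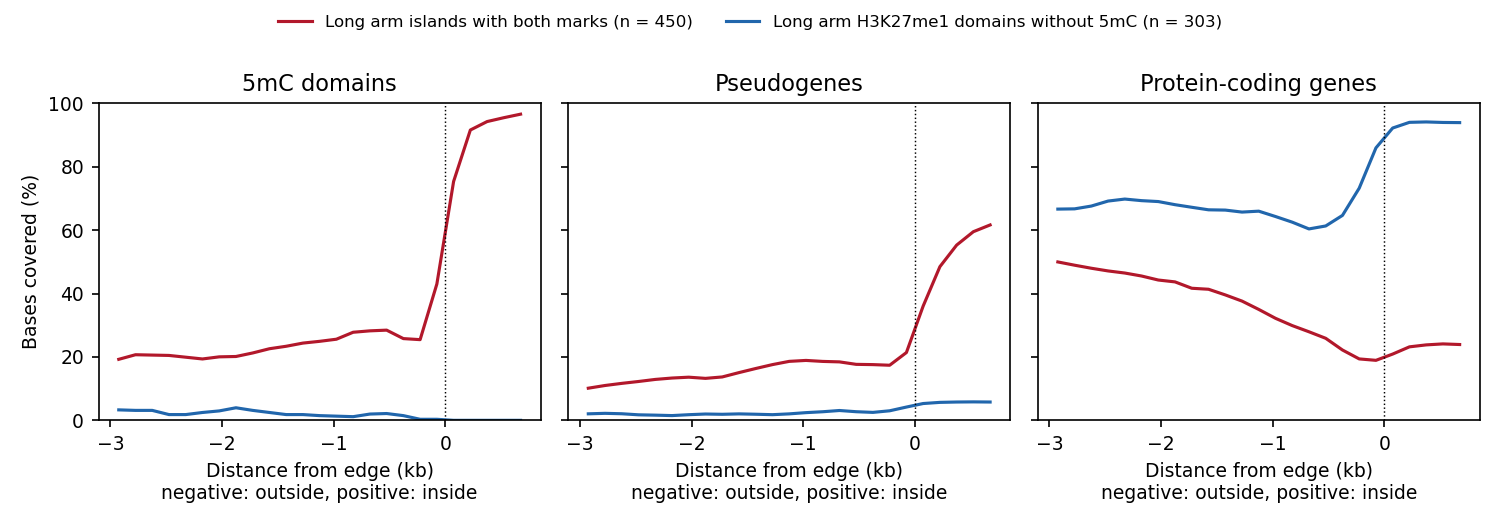
Percent of bases in 5mC domains, pseudogenes and protein-coding genes by distance from the domain edge (kb, negative outside, both edges pooled, bins of 150 bp), for islands (red) and long arm H3K27me1 domains without 5mC (blue). Inside the islands 5mC is set by the rule; outside, coding coverage falls to 18.9% at the island edge and 5mC is still at 19.2% at the far end.

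Islands often had close neighbours. The median gap between neighbouring islands of an arm was 86.1 kb, but 86 of 440 gaps were at most 5 kb, and 154 islands had another within that distance. Of the 86 short gaps, 65 held no further H3K27me1 domain. The 5mC bridged 33 of them completely and was absent from 20. Some short gaps were only 300 bp, the H3K27me1 calling window, and parted islands over the same pseudogene, such as AT1G70010. In all, 29 of the 461 5mC domains that met islands met 2 or 3 of them, so that 62 islands shared a 5mC domain with another. Seen from the 5mC list, 374 of 497 arm 5mC domains of at least 1500 bp (75.3%) met an island. These had a median of 1717 reads per kb, and those that met none had 1239.

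Islands were densest next to the pericentromeres. There were 13.1 per Mb in the first Mb of arm beyond the boundary (131 islands), 6.07 in the second, 4.25 at 5 to 6 Mb and between 0.758 and 0.893 from 9 to 13 Mb. Long arm domains without 5mC followed the opposite course, with 1.40 per Mb in the first Mb and 3.75 to 6.45 from 9 to 13 Mb. Over whole arms the chromosomes differed little, from 4.54 islands per Mb on chromosome 5 to 5.19 on chromosome 1.

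The number of pseudogenes fell along the arms as well, from 32.0 per Mb in the first Mb to 4.85 at 9 to 10 Mb. The share of pseudogenes covered by islands was 36.6% within 1 Mb of the boundary (117 of 320, interval 31.5 to 42.0%), 27.9% at 1 to 3 Mb, 25.5% at 3 to 6 Mb, 18.2% at 6 to 9 Mb and 13.3% beyond (12 of 90, 7.79 to 21.9%). Among pseudogenes of at least 3000 bp the values were 73.3%, 73.5%, 72.7%, 62.5% and 50%, the last from 8 of 16. Read density of the islands changed little over these bands. The median was 644 H3K27me1 reads per kb within 1 Mb, 637 at 1 to 3 Mb, 619 at 3 to 6 Mb, 594 at 6 to 9 Mb and 628 beyond. In the outermost 500 kb of a chromosome lay 13 of the 450 islands (2.89%, interval 1.70 to 4.88%). The share of arm length in these ends was not computed, so the count is not read as low or high.

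**Figure D5:**
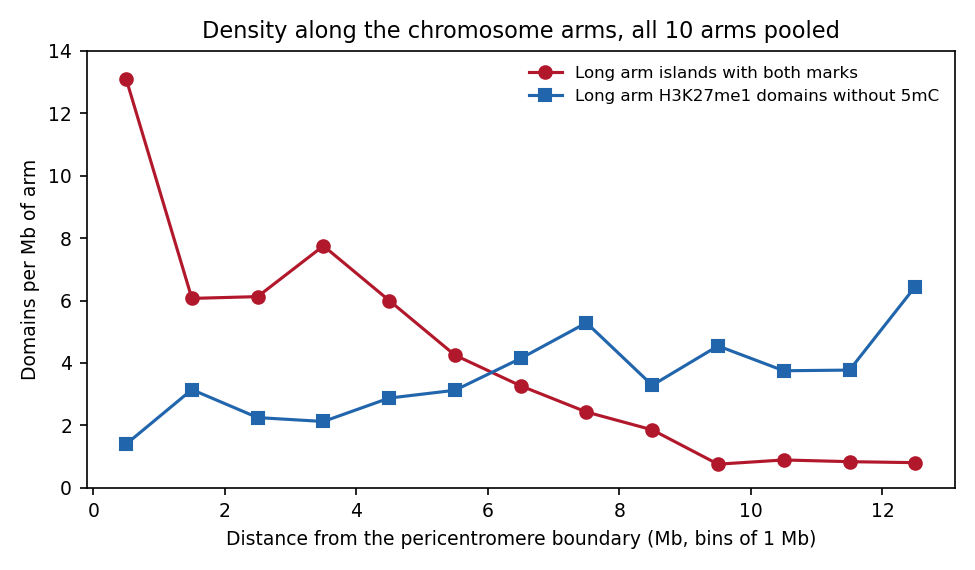
Domains per Mb of arm against distance from the pericentromere boundary (Mb, bins of 1 Mb, all arms pooled), for islands (red circles) and long arm H3K27me1 domains without 5mC (blue squares). Islands drop from 13.1 per Mb in the first bin to under 1 per Mb beyond 9 Mb, where fewer arms contribute.

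Long pericentromeric domains chosen by the same width and 5mC share were close to the islands in read density and pseudogene share. The medians were 630.2 H3K27me1 reads per kb in islands and 653 in the 2321 pericentromeric domains (quartiles 545 and 766). Mostly pseudogenic were 69.6% of islands and 67.7% of pericentromeric domains (65.8 to 69.6%), whose chromosome values of 62.3 to 71.0% overlap those of the islands. By width the sets crossed: at 1500 bp the pseudogene share was 30.1% in islands and 49.7% in pericentromeric domains, and from 4800 bp it was 92.2% and 77.7%. The sets differed in the rest of their sequence: 16.9% of island bases were protein-coding against 3.64% in pericentromeric domains, and 16.4% were unannotated against 36.7%. Their surroundings differed too, with 5mC over 19.2% of bases at 2850 to 3000 bp from islands and over 63.0% at that distance from pericentromeric domains.

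A small group of islands had no annotated gene at all. There were 10 such islands (2.22%, interval 1.21 to 4.04%). At the same minimum width, there were 0 of 303 arm domains without 5mC and 241 of 2321 pericentromeric domains with both marks (10.4%). The 1359 shorter arm domains with both marks included 379 (27.9%), but a shorter domain has fewer bases that can meet a gene. The widest of the 10 islands had 3000 bp, on chromosome 4 from 7029601 to 7032600. It had 540.3 H3K27me1 reads per kb and lay 3376 bp from the nearest coding gene. The next were on chromosome 1 from 12376501 to 12378900 (2400 bp, 897 reads per kb) and from 17411701 to 17413800 (2100 bp, 425). Islands of 1800 bp on chromosome 4 from 11079301 to 11081100 (512) and on chromosome 1 from 10964401 to 10966200 (452) completed the 5 widest.

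Genes listed for nearby repeats or epialleles had their annotated spans mostly outside the islands. Promoters and flanks were not counted, so an island over a repeat beside a gene would be missed. Of 18 such loci on the arms, AT1G58602 was the single one touched (5.56%, against 0.687% of all arm coding genes touched). FWA and SDC, which are silenced by methylated repeats, had 14.6% and 31.2% of their length in H3K27me1 domains, but none in islands. The demethylase gene ROS1, known for a methylated element in its promoter, had 26.1% in H3K27me1 and 2.17% in 5mC, also outside islands. The immune receptor gene RPP4 had 41.8% in 5mC and 0% in H3K27me1 domains.

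None of the 18 arm genes of DNA methylation and silencing touched an island, against 0.687% of all arm coding genes. None of 7 arm loci derived from transposases touched one either. Among these, MUG2, a pseudogene in the table, and MUG3, of the MUSTANG family that arose from a Mutator-like transposase, had 79.5% and 56.9% of their length in H3K27me1 and 0% in 5mC domains. MUG1, also a pseudogene there, had 0% in H3K27me1 and 36.2% in 5mC. The words disease resistance and its variants, searched in symbols and synonyms only, matched 15 arm coding genes and F-box matched 27. None of either touched an island, but ADR1-L3, with 97.5% in an island, was not among the matches. These counts therefore do not describe whole gene families. Beside these counts stand the 0.687% of arm coding genes and, for the pseudogenes among the transposase-derived loci, the 28.6% of arm pseudogenes touched by islands.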

How the data were processed

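H3K27me1 ChIP-seq, MeDIP-seq for 5mC and MeDIP input were made from young Col-0 leaves, with 2 samples each. The authors aligned reads with Bowtie to TAIR10 and called domains with SICER, per the submitters' processing notes; versions, thresholds, the pooling of replicates and use of the input were not stated there. The deposited values are 1 read count per domain in each of 2 lists, on windows of 300 bp for H3K27me1 and 150 bp for 5mC. Counts were divided by width to give reads per kb. Read counts of wide or repeated sequence depend on how reads with several matches were placed, which is not given.

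Domains were intersected with 37899 nuclear genes of the RefSeq table (TAIR10.1), of which 27444 are protein-coding and 4843 pseudogenes. The build names differ, so overlap was recomputed with the table shifted by up to 5000 bp in steps of 50 bp, and gene coordinates are not printed. Overlap peaked at 0 bp on 4 chromosomes and at -50 bp on chromosome 4. A domain was mostly in a class, and a gene covered, at 50%. Genes in the table carry no strand, exon or transposon class. Named items are the 10 widest islands, the 10 coding genes with most covered bases, the 5 densest and the single lowest island per mark, the 8 widest islands deep inside a gene (9 with a tie), the 5 widest without a gene, islands at the thresholds and the gene lists. The covered genes with symbols and the extensin group were added after their values were seen. The names of ONSEN and EVD copies and of RPP7 come from a written list and are not in the table. Keyword lists matched symbols and synonyms. The islands and lists were chosen with earlier results of these data known. With 1 value per domain no test was run; Wilson intervals use a 95% level. Intersection was tested on simulated data. Python 3.11.15, numpy 2.4.6, pandas 2.3.3 and scipy 1.17.1 were used. Alternatives covered the width, the 5mC share, the pericentromere boundary, read density and the share that counts as mostly.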

Additional observations from a re-analysis of the deposited data

How the results depend on the processing

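No paired analysis was possible because each list has 1 count per domain and none per replicate; for the same reason leaving out a replicate was not run. Of the values recomputed under other settings, 37 stayed within the interval or limit set for them, 32 moved and none reversed. Limits for counts were wide: 300 to 675 islands, 90.7 to 204 covered coding genes and 225 to 505.5 covered pseudogenes. Shares, their difference and medians had narrower intervals of counting error. Of the 37, 9 came from leaving out the widest island alone. The cause of the moves was not tested beyond the changed membership itself.

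A minimum width of 3000 bp left 203 islands, of which 86.2% were mostly pseudogene, 11.8% mostly coding and 0.493% without a gene. They covered 57 coding genes and 223 pseudogenes, with medians of 721 H3K27me1 and 1848 5mC reads per kb, and the difference in pseudogene share from domains without 5mC was 73.7 points. A minimum of 1200 bp gave 602 islands, 197 covered coding genes and 376 covered pseudogenes, which stayed within the wide limits for counts. The island shares were 59.5% pseudogene, 28.6% coding and 5.48% without a gene, the medians 601.0 and 1608, and the difference 55.5 points. With at least 80% of the width in 5mC the shares were 74.6% and 18.2% and the difference 68.7 points. With any overlap with 5mC they were 62.8% and 30.02%, the medians 602 and 1624 and the difference 56.9 points. With pericentromeres widened by 1 Mb on each side the shares were 64.6% and 27.9%, and 220.0 pseudogenes were covered. Among domains above the median reads per kb of each list, the shares were 73.9% and 17.8% and the medians 662 and 1738. Requiring 80% of an island for a class gave 49.8% and 18.4%. Pseudogene exceeded coding in each of these settings, and the difference from domains without 5mC stayed positive. Leaving out the widest island, chosen after seeing the data, moved no value past its limit. Read counts per domain limit precision little, with at least 114 reads in an H3K27me1 domain and 97 in a 5mC domain, but the spread between replicates is unknown.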
